A study of Mus musculus with 22 samples.

Results

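The genes described here are 8 transcription factors of the developing and the differentiated kidney tubule, Sox9, Sox4, Sox11, Pax2, Pax8, Lhx1, Hnf4a and Six2. They were found by their symbols among the array's annotated probes, and all 8 were measured, with 47 spots, out of 17039 genes tested. The samples were kidneys of C57BL/6 mice taken 1, 2, 5 or 9 days after the left ureter was tied off, an operation known as unilateral ureteral obstruction, or after a sham operation that dissected the ureter and left it open. No transgene, mutation or drug is given in the labels, so obstructed and sham mice differed by the ligation as far as the labels say. One exception is an unexplained letter, L or R, that ends each sample name. All obstructed names end in L, and R ends only some sham names of days 1 and 2. Whole kidney RNA in Cy5 was hybridised on 22 2-colour arrays beside a universal mouse reference RNA in Cy3, and every level below is a log2 ratio of kidney to that reference. After a pair of sham arrays that share a sample number was averaged, there were 2 sham replicates at each day and 3, 3, 3 and 4 obstructed replicates at days 1, 2, 5 and 9.

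A nephron forms in the embryo when progenitor cells that express Six2 stop renewing and build an epithelium, a step in which Pax2, Pax8 and Lhx1 take part. Sox4 and Sox11 are sister HMG-box factors of renal progenitors and early nephrons. Sox9 is made in the embryonic ureteric bud and early nephron and is known to be switched on again in injured tubule cells of the adult mouse. Hnf4a, a nuclear receptor, drives the genes of the mature proximal tubule, the segment that reabsorbs most of the filtrate.

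The arrays gave 35747 to 39871 measured spots each. After the averaging of the sham pair, no pair of replicates correlated below 0.806 over all spots kept. In sham kidneys the mean level of 10 proximal tubule markers was 5.26 to 5.66 on the log2 scale and that of 10 collecting duct markers was 4.95 to 5.45, so the labelled tissue carried its markers far above the reference. Labels do not say whether each replicate was a separate animal, and p-values measure the spread between these samples.

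Averaged over the 4 days, 3 of the 8 genes rose after obstruction and 4 fell, by the limma test with Benjamini-Hochberg adjustment over all genes at 0.05. Over all 17039 genes 53.1% passed this test, 27.1% higher and 26% lower, so the number of members that passed is read against a background in which most genes changed. The 3 that rose were the HMG-box factors Sox9, Sox11 and Sox4. The 4 that fell were Lhx1, Six2, Hnf4a and Pax2, and Pax8 did not pass. Every obstructed replicate lay above every sham replicate of its day on all 4 days for Sox9, Sox4 and Sox11, a pattern found in 8.09% of genes. Lhx1 lay below on all 4 days, which 8.87% of genes did.

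**Figure D1:**
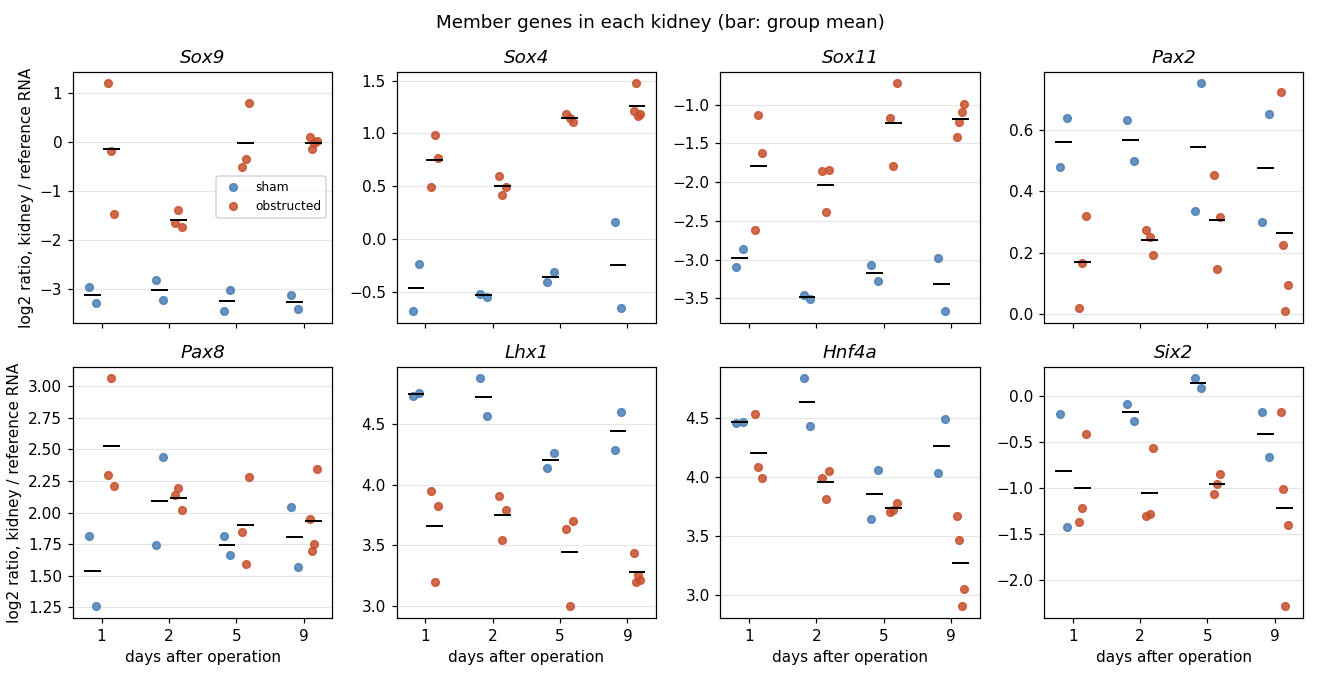
Log2 ratio of kidney to reference RNA for each of the 8 genes (vertical axes, each with its own scale) at 1, 2, 5 and 9 days after the operation, with 1 point per replicate, sham in blue and obstructed in orange, and a black bar at each group mean. The obstructed points of Sox9, Sox4 and Sox11 lie above the sham points at every day and those of Lhx1 below them, whereas for Pax8 the groups overlap at days 2, 5 and 9.

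Sox9 showed the largest rise of the 8 genes. In the 8 sham kidneys its level was low and tight, from -3.46 through a median of -3.17 to -2.81. The 3 obstructed kidneys of day 1 read 1.20, -0.17 and -1.46, those of day 2 read -1.65, -1.40 and -1.73, those of day 5 read -0.50, -0.36 and 0.79, and those of day 9 read 0.09, -0.14, -0.02 and 0.03. By this average of the gene's spots all 13 obstructed kidneys were thus above all 8 sham kidneys. The mean difference over the days was 2.72 ± 0.26 on the log2 scale (SE), a 6.59-fold rise (limma adjusted p = 4.29e-07), larger than that of 99.58% of all genes.

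By day the Sox9 difference was 2.98 ± 0.52 at day 1, 1.43 ± 0.52 at day 2, 3.22 ± 0.52 at day 5 and 3.25 ± 0.50 at day 9. It passed at day 1 (limma adjusted p = 0.00137), day 5 (0.000406) and day 9 (9.63e-05) but not at day 2 (0.0790). All 3 obstructed kidneys of day 2 were nevertheless above both sham kidneys of that day, -2.81 and -3.22. The obstructed SD was 1.33 at day 1 and 0.174 at day 2 (n = 3 each), and the fit shares 1 estimate of the spread. With either the highest or the lowest obstructed kidney of day 1 left out, day 2 passed (limma adjusted p = 0.0162 and 0.0198), whereas over the other replicates left out its difference went down to 1.23 and its adjusted p up to 0.280. Across the 4 days the obstructed kidneys differed among themselves (moderated F test, adjusted p = 0.0311, passed by 33.1% of genes). The obstruction effect itself was not shown to differ between days (adjusted p = 0.286, passed by 5.21% of genes), nor did the step down from day 1 to day 2 in obstructed kidneys pass, at -1.45 (limma adjusted p = 0.0737, passed by 6.85% of genes).

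The 13 Sox9 spots fell into 10 grouped as near-identical and 3 others. Spots were grouped where every pair differed by at most 0.6 on the log2 scale, as a root mean square over the replicates. Each of the 10 rose by 2.99 to 3.18 on the log2 scale, and another spot annotated to the same RefSeq transcript rose by 3.06. The remaining pair rose by 1.08 and 0.61 on the log2 scale. The spot at 1.08 was annotated to a different sequence, but that at 0.61 to the same RefSeq transcript as the others. All 13 spots passed as higher, where 47.8% of all probes passed in either direction. In the remaining pair the sham and obstructed ranges overlapped. The spot at 1.08 read -2.42 to -0.23 in sham and -1.87 to 1.82 in obstructed kidneys. The spot at 0.61 read -2.39 to -1.04 in sham and -2.40 to -0.34 in obstructed kidneys. With the near-identical spots averaged first, so that they count once, the Sox9 rise was 1.96. At day 2 it was then 0.77 (limma adjusted p = 0.350), with 1 of the remaining pair at -0.74, a value that did not pass.

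Sox4 had the lowest p of the 8 genes. Its 8 sham values ran from -0.69 through a median of -0.46 to 0.16. The obstructed values were 0.49, 0.99 and 0.76 at day 1, 0.60, 0.42 and 0.50 at day 2, 1.19, 1.15 and 1.10 at day 5, and 1.21, 1.47, 1.17 and 1.18 at day 9. The day 5 and day 9 kidneys were all above the day 1 and day 2 kidneys, and none overlapped the sham range. The mean difference was 1.31 ± 0.10, a 2.49-fold rise (limma adjusted p = 4.25e-08). It passed at each day, at 1.21, 1.04, 1.503 and 1.51 in order. The obstructed kidneys differed between days (moderated F test, adjusted p = 0.00846), whereas for the effect that test gave 0.547.

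Sox11, the sister gene of Sox4, rose from sham values between -3.67 and -2.86, with a median of -3.19. Its obstructed values were -2.62, -1.13 and -1.62 at day 1, -1.86, -2.39 and -1.85 at day 2, -1.17, -1.80 and -0.72 at day 5, and -1.42, -1.22, -1.09 and -0.99 at day 9. The day 1 kidney at -2.62 came closest to the sham kidneys. The mean difference was 1.68 ± 0.18, or 3.21-fold (limma adjusted p = 1.46e-06), and all 6 of its spots rose, by 1.18 to 2.16. The daily differences of 1.19, 1.45, 1.94 and 2.14 all passed, day 1 with a limma adjusted p of 0.0345 that was lost when any day 1 replicate except the one at -2.62 was left out (0.0771 to 0.158). The day 2 call was lost without either sham kidney of that day (limma adjusted p = 0.0841 and 0.0788), without arrays marked R (0.0930), with 1 probe (0.124) and with quantile normalization, where the difference was 0.90 (0.135).

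The same day 1 kidney, S02L, held the highest Sox9 of all 21 replicates and the lowest Sox11 of all obstructed replicates, and it was the lowest of its day for Sox4. Without it the day 1 differences were 2.31 for Sox9, 1.34 for Sox4 and 1.60 for Sox11, and all passed. Over the 21 replicates Sox4 and Sox11 had a Pearson r of 0.946, and 0.577 for their deviations from the group means. Sox9 had an r of 0.873 with Sox4 and 0.828 with Sox11, but -0.235 and -0.261 for the deviations. These values describe arrays that share a reference and fall into a sham and an obstructed cluster.

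**Figure D2:**
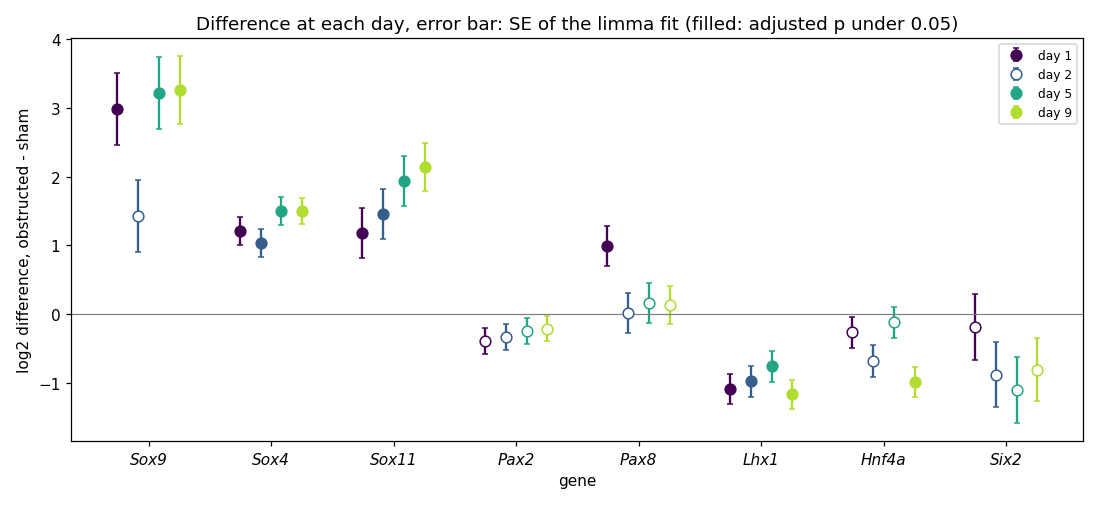
Log2 difference of obstructed minus sham kidneys (vertical axis) for each gene at days 1, 2, 5 and 9, with the standard error of the limma fit as bars and filled points where the adjusted p was under 0.05. Sox9 spans 1.43 to 3.25, Sox4 and Sox11 lie above 1 at all days, Lhx1 lies between -1.16 and -0.76, and Hnf4a is filled at day 9 alone.

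Lhx1, a LIM homeodomain factor needed to shape the early nephron, fell. Its 8 sham values ran from 4.14 through a median of 4.58 to 4.88, and its 13 obstructed values from 2.996 through 3.55 to 3.95. The ranges did not meet. The mean difference was -0.99 ± 0.11, so obstructed kidneys held 0.502 of the sham level (limma adjusted p = 2.31e-06). All 4 days passed, at -1.09, -0.97, -0.76 and -1.16, although day 5 (limma adjusted p = 0.0213) did not pass without either of its sham kidneys or without the obstructed kidney at the lowest value, and day 2 did not pass without 1 of its sham kidneys (-0.82, limma adjusted p = 0.113). Of its 11 spots, 10 were near-identical and each fell, by 0.94 to 1.14 on the log2 scale. The 11th, annotated to a different transcript, read -0.38 and did not pass, and with the near-identical spots counted once the gene's difference was -0.72. Days 1 and 5 then read -0.65 and -0.30 and did not pass (limma adjusted p = 0.0926 and 0.422).

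Hnf4a fell by 0.51 ± 0.11 on the log2 scale over the 4 days (limma adjusted p = 0.00124). At day 9 the 4 obstructed kidneys read 3.67, 3.47, 2.90 and 3.05 and the 2 sham kidneys 4.03 and 4.49, a difference of -0.99 ± 0.22 (adjusted p = 0.00183). This was the one day that passed for the mean of the gene's spots, and it no longer passed without the sham kidney at 4.49 (-0.76). At day 2 the difference was -0.68 (limma adjusted p = 0.0557), with the obstructed values 3.99, 3.82 and 4.06 below the sham values 4.84 and 4.43. At days 1 and 5 it was -0.26 and -0.12. The day 5 groups overlapped, with obstructed kidneys at 3.71, 3.72 and 3.78 between sham kidneys at 3.65 and 4.06. Hnf4a differed between days in obstructed kidneys (moderated F test, adjusted p = 0.00732), from a mean of 4.21 at day 1 to 3.27 at day 9, but the change in effect from day 1 to day 9 was not shown (-0.73, limma adjusted p = 0.151).

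The 3 Hnf4a spots, all annotated to 1 RefSeq transcript, did not fall alike. The third fell by 0.97 over the 4 days and passed, with sham values of 1.13 to 1.93 and obstructed values of -0.15 to 1.27. The other two gave -0.23 and -0.34 and did not pass, and their sham and obstructed ranges overlapped widely. At day 5 the third spot's difference was -1.07 while the second's was 0.69, beside the gene's mean of -0.12. The third spot passed as lower at day 2 (-0.82), day 5 and day 9 (-1.28), and the second at day 9 (-1.15). Of all probes 12.3%, 21.5% and 35.9% passed in either direction at days 2, 5 and 9.

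**Figure D3:**
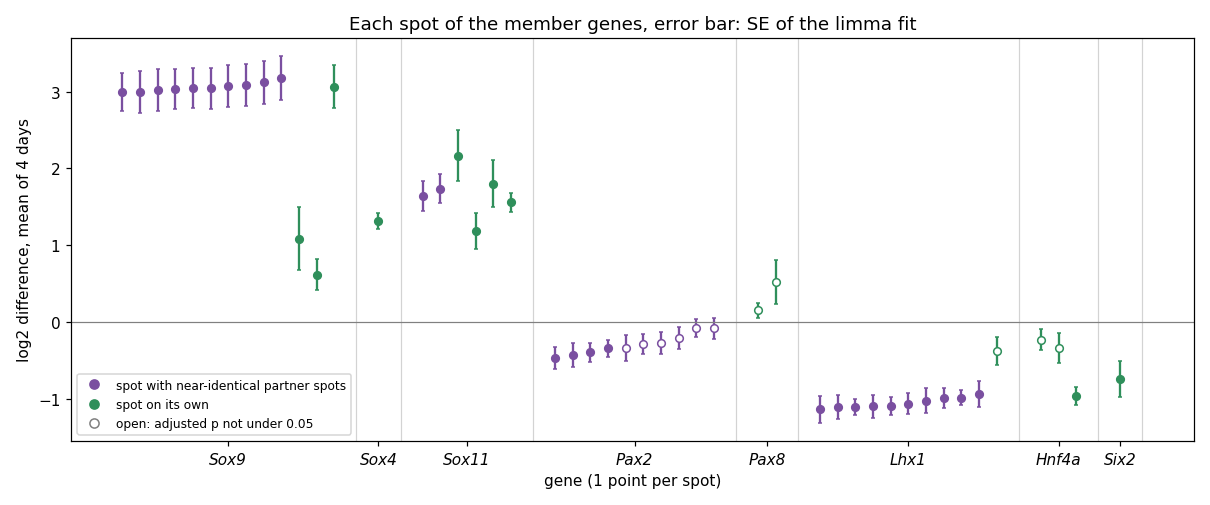
Log2 difference of obstructed minus sham kidneys averaged over the 4 days (vertical axis) for each of the 47 spots, ordered by gene, with the standard error of the limma fit as bars, purple for spots with near-identical partners, green for spots on their own, and open points where the adjusted p was not under 0.05. The 3 Hnf4a spots lie at -0.23, -0.34 and -0.97, and 2 Sox9 spots lie at 0.61 and 1.08, below the other 11.

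The paired-box genes moved little. Pax2, which is needed for the nephron and collecting duct lineages, fell by 0.29 ± 0.09 on the log2 scale over the 4 days (limma adjusted p = 0.0162) and passed at no single day. Its sham values of 0.30 to 0.75 and obstructed values of 0.01 to 0.73 overlapped, although at days 1 and 2 all obstructed kidneys were below both sham kidneys. Its call was lost without either of 2 sham kidneys, at -0.24 or -0.25. Pax8, which acts beside Pax2 and persists in adult tubules, rose at day 1 alone, where obstructed kidneys read 2.30, 3.06 and 2.21 and sham kidneys 1.82 and 1.26. That difference of 0.99 ± 0.29 (limma adjusted p = 0.0290) did not pass without the obstructed kidney at 3.06 (0.72) or without the sham kidney at 1.26 (0.71), and neither of its 2 spots passed at day 1 (14.1% of all probes did). At days 2, 5 and 9 it was 0.02, 0.16 and 0.13, and 1 Pax8 spot was unmeasured on 1 array.

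Six2, the factor that keeps nephron progenitors renewing and that is silenced in the mouse kidney soon after birth, was measured by 1 spot. It fell by 0.74 ± 0.24 on the log2 scale over the 4 days (limma adjusted p = 0.0154) and passed at no day. Sham values ran from -1.42 through a median of -0.18 to 0.19 and obstructed values from -2.28 through -1.07 to -0.17. The ranges overlapped, with a sham kidney of day 1 at the lowest sham value. Without the other sham sample of that day the mean of -0.59 did not pass (limma adjusted p = 0.0528). At days 2 and 5 all obstructed kidneys lay below both sham kidneys.

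Counted by day, 5 of the 8 genes passed at day 1 (17.6% of all genes), 3 at day 2 (15.6%), 4 at day 5 (26.2%) and 5 at day 9 (41.6%). By limma none of the 8 had a day 9 difference that passed as unlike its day 1 difference (11.7% of all genes), and 2, Hnf4a and Pax8, had an unadjusted p under 0.05. By the moderated F test of the effect between days none passed (5.21% of all genes), and none had an unadjusted p under 0.05. At single days the obstructed replicates lay wholly above the sham replicates for 4 of the 8 genes at day 1, the Sox genes and Pax8 (19.6% of all genes), and for the 3 Sox genes at days 2, 5 and 9 (26.2%, 26.5% and 29.4%). They lay wholly below for Pax2 and Lhx1 at day 1 (23.3%), for 4 genes at day 2, namely Pax2, Lhx1, Hnf4a and Six2 (24.8%), for Lhx1 and Six2 at day 5 (25.8%), and for Lhx1 and Hnf4a at day 9 (28.6%). Among sham kidneys the moderated F test called no gene different between days (0%), with an unadjusted p under 0.05 for 1 of the 8, Hnf4a.

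Promoter sequences are shown for the sister genes that rose together. Each is a RefSeq window on GRCm38.p6 of 250 bases before to 50 after a transcription start, written 5′ to 3′ on the gene's strand. Windows were given for 7 of the 8 genes and not for Sox9, so the promoter of Sox9 was not searched.
Sox4, chr13:28953650-28953949, minus strand: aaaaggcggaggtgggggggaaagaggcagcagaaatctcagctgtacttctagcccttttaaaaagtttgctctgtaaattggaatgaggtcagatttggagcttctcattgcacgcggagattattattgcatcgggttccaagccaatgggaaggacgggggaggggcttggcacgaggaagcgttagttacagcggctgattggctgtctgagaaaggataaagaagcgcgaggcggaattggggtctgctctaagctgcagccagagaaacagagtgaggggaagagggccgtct
Sox11, chr12:27342669-27342968, minus strand: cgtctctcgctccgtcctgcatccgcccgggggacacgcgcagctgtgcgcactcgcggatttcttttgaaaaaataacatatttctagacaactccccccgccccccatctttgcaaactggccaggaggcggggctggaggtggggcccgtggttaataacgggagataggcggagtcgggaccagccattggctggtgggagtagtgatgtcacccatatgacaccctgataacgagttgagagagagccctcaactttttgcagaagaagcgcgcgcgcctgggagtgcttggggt
The AP-1 motif TGANTCA (in 7.81% of 32851 mouse promoter windows of this length), the SOX motif AACAAT (10.7%), the HNF4 motif CAAAGTCCA (0.475%), the TATA box as TATAAA (13.6%) and the hypoxia response core ACGTG (19.6%), searched on both strands, were not found in the 10 windows of these genes.

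Of 34 transport, uptake and metabolic genes of the differentiated proximal tubule 30 were measured. Of these 24 fell and none rose over the 4 days (26% and 27.1% of all genes). Their median difference was -0.54 against -0.01 for all genes. Those of lowest p were Slc22a8, an organic anion transporter (-1.39 ± 0.15), Slc5a12, a lactate transporter (-0.92 ± 0.11), Cubn, the endocytic receptor cubilin (-1.24 ± 0.16), and Fbp1, a gluconeogenic enzyme (-0.86 ± 0.12), with limma adjusted p-values of at most 1.66e-05. At day 1, 4 of the 30 fell (9.47% of all genes were lower), at day 2, 2 (6.5%), at day 5, 3 (11.7%), and at day 9, 22 (20.3%). The shares at days 1, 2 and 5 were near the background. The mean level of 10 proximal tubule markers, 7 of them in this list, was nevertheless lower in every obstructed kidney of those days. It was 4.55 to 4.92 against 5.55 and 5.66 in sham kidneys at day 1. At day 2 it was 4.86 to 4.96 against 5.54 and 5.59, and at day 5 it was 4.54 to 4.81 against 5.26 and 5.33. Hnf4a also passed at day 9 alone, a call lost without the sham kidney at 4.49, and any link to these genes was not tested. With quantile normalization 15 of the 30 genes fell over the 4 days, 1 rose and the median was -0.33.

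Of 14 transcription factors and coactivators of the proximal tubule that were measured, 10 fell and none rose (26% and 27.1% of all genes). Their median was -0.36. Esrra, an orphan nuclear receptor of mitochondrial genes, fell by 0.94 on the log2 scale (limma adjusted p = 1.94e-07), from sham means of 1.68 to 1.94 to obstructed means of 0.62 to 1.27 over the days. Klf15, a zinc finger factor of amino acid and glucose metabolism, fell by 1.27 (9.70e-06), the coactivator Ppargc1a by 0.94 (1.46e-05) and Maf by 0.78 (4.26e-05). Hnf4g, the paralogue of Hnf4a, read -0.04 and did not pass (limma adjusted p = 0.789).

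Of 24 factors of the loop of Henle, distal tubule and collecting duct, 2 rose and 9 fell (27.1% and 26% of all genes). Their median of -0.16 turned to 0.04 with quantile normalization. Elf3, an epithelial Ets factor, rose by 1.12 ± 0.07 (limma adjusted p = 9.14e-09). Its sham means were 0.72 to 0.79 at all days and its obstructed means 1.60 to 2.02. Emx1 (-1.17), Irx1 (-0.65), a factor of the intermediate nephron segments, and Hmx2 (-0.89) fell with limma adjusted p-values of 2.56e-07 to 2.59e-06.

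Of 29 nephron progenitor and early nephron factors 26 were measured, 7 of them genes of the 8 described above. In all 9 rose and 8 fell (8 and 9 with quantile normalization), and the median was 0.02. These shares were not far above the 27.1% and 26% of all genes. The 4 of lowest p were Sox4, Sox9, Sox11 and Lhx1. Genes of the list that passed went both ways. The Sox genes, Hoxa11 (0.71), Etv4 (0.68) and Hey1 (0.52) were higher. Osr2 (-0.94), Sall1 (-0.47) and Mecom (-0.42) were lower beside Lhx1, Six2 and Pax2. Wt1, a factor of progenitors and podocytes, read 0.12 and did not pass, nor did Eya1, the partner of Six2 (-0.13). These genes past the 4 of lowest p were picked after their values were seen.

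Relatives of the 8 genes did not all move with them. The family counts below stand beside 27.1% of all genes that rose and 26% that fell over the 4 days. Of 16 Sox genes measured 6 rose and 1 fell (6 and 2 with quantile normalization), 3 of the 6 being Sox9, Sox4 and Sox11, and the median was -0.05. Sox8, of the same subgroup as Sox9, rose by 1.09 ± 0.23 (limma adjusted p = 0.000892), with an obstructed mean of 1.73 at day 9 against -0.70 in sham kidneys, while Sox10, the other close relative of Sox9 and a marker of Schwann cells, read -0.06 (0.651). Sox12, the other relative of Sox4 and Sox11, read -0.16 (0.139). Among 10 LIM homeodomain genes 2 rose and 2 fell (1 and 2 with quantile normalization). Lhx5, the closest relative of Lhx1, rose by 1.94 ± 0.24 (limma adjusted p = 1.71e-05), the opposite direction to Lhx1, in a fit with 1 measured sham replicate at each of days 2 and 9. Of 9 Pax genes 1 rose and 2 fell, of 8 genes of the Six2 and Eya families 3 rose and 1 fell, and of 9 Hnf, Fox and related factors 2 rose and 1 fell, but with quantile normalization 3 of the Pax, 3 of the Six2 and Eya and 3 of the Hnf and related genes fell and 1, 0 and 0 rose. Pax7 read -0.53 and Pax6 0.58, Eya4 0.42 and Nr2f1 1.04, and all passed.

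**Figure D4:**
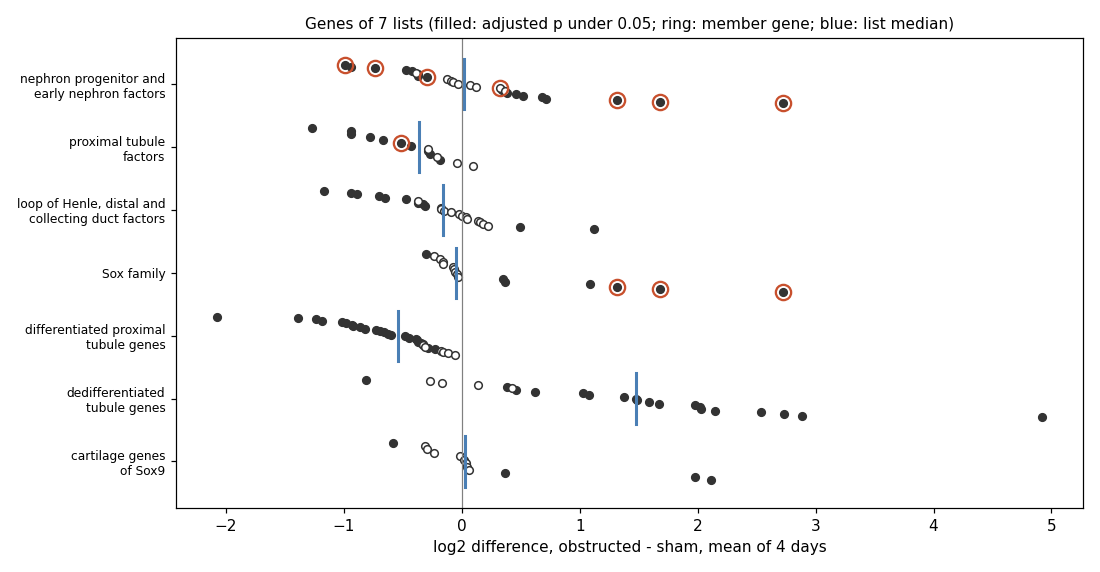
Log2 difference of obstructed minus sham kidneys averaged over the 4 days (horizontal axis) for every measured gene of 7 lists (rows), filled where the limma adjusted p was under 0.05, with a ring around genes among the 8 and a blue line at each list's median. The medians run from -0.54 for differentiated proximal tubule genes to 1.47 for dedifferentiated tubule genes, and the 3 Sox genes with rings are the highest points of the Sox family.

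Of 23 measured genes known as marks of injured, dedifferentiated tubule cells 18 rose and 1, the cyclin gene Ccnd1, fell (-0.81). Their median was 1.47, and of all genes 27.1% rose and 26% fell. Lcn2, which encodes the injury marker NGAL, rose by 4.92 ± 0.24, Cd44 by 2.89 ± 0.16, and the keratin genes Krt8 and Krt18 by 1.48 and 2.15, with limma adjusted p-values from 1.98e-09 to 1.36e-08. Lcn2 was highest at day 1, with an obstructed mean of 4.32 against -0.72 in sham kidneys, and Cd44 rose from -3.10 at day 1 to -0.82 at day 9 in obstructed kidneys, with sham means between -5.01 and -4.58.

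Of 12 measured genes that Sox9 is known to drive in cartilage, or that work beside it there, 3 rose and 1 fell, with a median of 0.03, shares no larger than the 27.1% and 26% of all genes. Col2a1 and Col11a1, the fibrillar collagen genes of cartilage, rose by 1.98 ± 0.25 and 2.11 ± 0.21 (limma adjusted p = 7.08e-06 and 6.97e-07). The HMG-box gene Sox5 rose by 0.36, while Matn4 fell by 0.59 on the log2 scale. Acan, the aggrecan gene, read -0.02 and Col9a1 -0.30, and neither passed. At day 1, where the Sox9 difference was 2.98, Col11a1 had obstructed and sham means of -1.63 and -1.57, and at day 9 of 2.04 and -1.85.

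Ranked by likeness over the 21 replicates, the named gene most like Sox9 among 15347 compared was Hilpda, a lipid droplet gene known to respond to low oxygen, with a Pearson r of 0.970. Smox, Cttnbp2nl, Vat1, Rhoc, Fgd6, Cdkn1a and Rhou followed, with r from 0.969 to 0.962. For deviations from the group means, which leave out the difference between sham and obstructed kidneys, r was 0.911 for Hilpda and 0.925 for Cdkn1a, the gene of the cell cycle inhibitor p21, and 0.658 to 0.808 for the others. Among the 13 obstructed kidneys alone r was 0.930 for Hilpda and 0.931 for Cdkn1a, and among the 8 sham kidneys -0.458 and -0.283. Both genes were named for their likeness to Sox9 in these same replicates, so their profiles over the days restate that choice. The daily differences were 1.37, 0.98, 1.35 and 1.49 for Hilpda and 2.28, 1.16, 1.81 and 2.02 for Cdkn1a. Without S02L, the kidney of highest Sox9, the deviations had an r of 0.878 and 0.877.

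**Figure D5:**
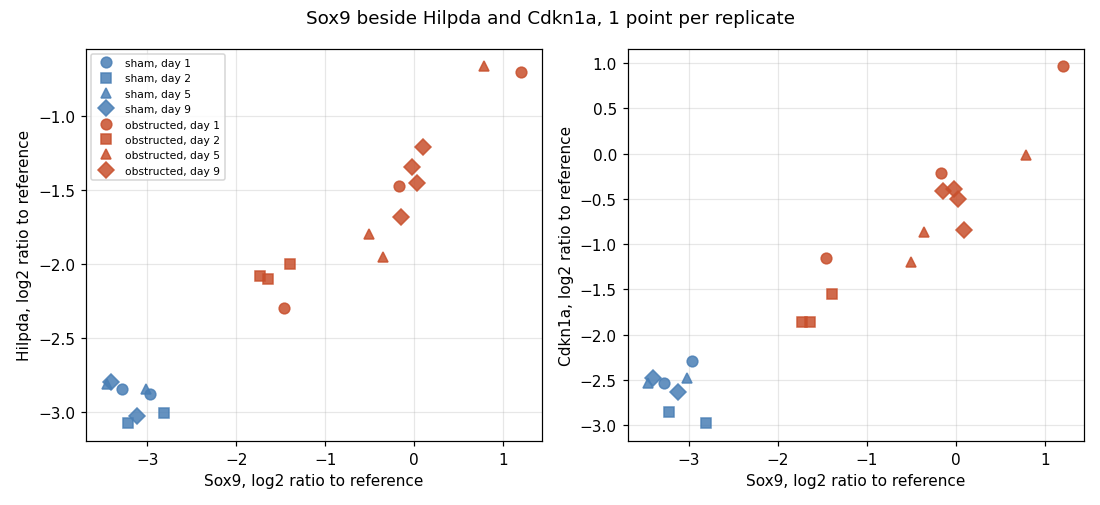
Log2 ratio to reference of Hilpda (left, vertical axis) and Cdkn1a (right, vertical axis) against that of Sox9 (horizontal axes), with 1 point per replicate, colour for the operation and marker shape for the day. The 13 obstructed kidneys line up in both panels with an r of 0.930 and 0.931, whereas the 8 sham kidneys form 1 cluster at the lower left.

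For Sox4 the 8 most alike genes were Lrfn4, Relb, Slc25a24, Plec, Sytl2, Fgr, Myh9 and Birc3, with r from 0.972 to 0.965 and lower values of 0.437 to 0.715 for the deviations. Relb and Birc3 belong to NF-kappa-B signalling, and Fgr is a kinase of myeloid cells. For Hnf4a they were Camsap3, Hpn, Ush1c, Slc7a9, Tas1r3, Prr15l, Ppara and Abca3, with r from 0.943 to 0.908 and 0.712 to 0.855 for the deviations. Slc7a9, an amino acid transporter of the proximal brush border, fell by 0.73 on the log2 scale, and Ppara, a nuclear receptor of fatty acid oxidation, by 0.43.

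Markers of other cells were read in the same kidneys, where 27.1% of all genes rose and 26% fell over the 4 days. In whole-kidney RNA fewer cells of a type and less RNA per cell cannot be told apart. All 10 fibroblast and pericyte markers rose, with a mean level of -1.78 to -0.11 in sham and -0.90 to 2.33 in obstructed kidneys, and all 8 macrophage markers rose, with levels of 0.47 to 1.57 and 1.29 to 3.96. Of 9 urothelial markers 5 rose (-0.32 to 0.96 in sham, 0.54 to 2.59 in obstructed kidneys) and of 7 Schwann and nerve markers 3 rose (0.02 to 0.44 and -0.06 to 0.84). Of 10 proximal tubule markers 9 fell, with levels of 5.26 to 5.66 in sham and 4.07 to 4.96 in obstructed kidneys, 7 of the 10 being also in the list of differentiated proximal tubule genes. Of 10 collecting duct markers 8 fell, from 4.95 to 5.45 in sham to 4.12 to 4.90 in obstructed kidneys. Of 8 loop of Henle and distal tubule markers 6 fell, from 5.69 to 6.26 in sham to 4.95 to 5.64 in obstructed kidneys, and of 5 podocyte markers 3 fell and 1 rose (2.48 to 2.81 and 2.18 to 2.52). Of 11 ribosomal protein genes 7 rose (-1.27 to -0.87 and -0.88 to -0.48), and of 10 cell cycle genes 9 rose (-4.69 to -2.04 and -3.88 to -1.64). The sham kidney at -2.04, S32L of day 5, stood apart for the cell cycle genes, the other 7 sham kidneys reaching -3.27 at most. Of 8 endothelial markers 2 fell and of 7 lymphocyte markers 2 rose and 1 fell, counts near or under the shares of all genes. The part of these marker changes in the rises of the Sox genes and the falls of Lhx1 and Hnf4a was not tested. In S02L, where Sox9 stood at 1.20, the fibroblast level of -0.90 and the macrophage level of 1.298 lay inside the sham ranges of all days. Both were above the sham replicates of day 1, at -1.06 and -0.93 for fibroblast and 1.00 and 1.04 for macrophage markers. The urothelial level of 1.47 in S02L lay above the sham range and the proximal tubule level of 4.55 below it. In S05L and S38L, also obstructed kidneys of day 1, the fibroblast level was -0.58 and -0.60, inside the sham range. Their macrophage level was 1.74, above the sham range, and 1.29, inside it.

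The labels' array images lie in 2 folders, and 4 arrays, among them 1 sham and 2 obstructed kidneys of day 5, share the smaller. With the folder as a block the mean differences were 2.66 for Sox9, 1.32 for Sox4, 1.67 for Sox11 and -1.01 for Lhx1, and within the larger folder they were 2.83, 1.35, 1.86 and -0.94. For Hnf4a, Six2 and Pax2 they were -0.52, -0.77 and -0.30 with the block and -0.55, -0.85 and -0.32 in the larger folder. In the smaller folder Sox9 read -3.46 in the day 5 sham kidney and -0.50 and -0.36 in the obstructed kidneys.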

How the data were processed

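The authors deposited 1 table of 22 columns, read here as log10 ratios of kidney to reference, a scale inferred from the values. No source used here gives the scanner software, background correction or dye normalization. Exact zeros, 11.4% to 20.6% of an array, were taken as missing. The deposited log10 values were converted to log2, probes measured on at least 18 of 22 arrays and in every group were kept, array medians were removed, and centred probes were averaged by gene. The platform annotation gave 33653 probes 1 gene. Design files had assumed log2 input and the test was kept.

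A limma 3.58.1 fit (R 4.3.3) of 8 group means covered 17039 genes, with eBayes and Benjamini-Hochberg adjustment at 0.05. It was tested on simulated data. The table holds no intensities, so signal over background was not examined, and the number of arrays limits the precision. The members, lists, motifs and tests were chosen with earlier results of these data known. The text names all 8 members, of each list the 4 genes of lowest p, and for Sox9, Sox4 and Hnf4a the 8 most alike genes. Hnf4g, Sox10, Sox12, Acan, Col9a1 and Ccnd1 were added after their values were seen. The labels do not explain the L and R ending sample names, and R occurs only among sham arrays, S03R and S06R of day 1 and S39R of day 2. Alternatives covered scaling, zeros, filters, probe summary, array weights, variance prior, image folder, model and each replicate left out.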

Additional observations from a re-analysis of the deposited data

Results flagged for a closer look

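In obstructed kidneys of day 9, the only group of 4 replicates, Sox4 read 1.47 in 1 kidney and 1.17, 1.18 and 1.21 in the other 3. The gap of the highest kidney to the next divided by the whole range was 0.849, above Dixon's critical value for 4 samples. Chance alone gives such a gap in about 1 in 20 sets of values of a single gene, and 8 genes were examined in this group, so at least 1 such gap among them is more likely than that. The Sox4 difference at day 9 passed with every replicate left out in turn.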

How the results depend on the processing

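Over the 4 days Sox9, Sox4 and Sox11 rose under all 36 alternatives, from 1.96 to 3.06, 1.21 to 1.42 and 1.26 to 2.16. Taking 1 probe per gene, the one measured on most arrays, settled ties by the larger mean absolute log2 ratio. All spots of Hnf4a, Lhx1, Sox9 and Sox11 were measured on all 22 arrays, so for them the tie rule made the choice. This setting left Hnf4a (-0.23) and Lhx1 (-0.38) without a call, and leaving out arrays marked R did so for Pax2 (-0.24). Pax8 passed with quantile normalization (0.39) and array weights (0.38). Replicates left out in turn gave -0.34 to -0.24 for Pax2, 0.24 to 0.41 for Pax8 and -0.89 to -0.59 for Six2, with calls changing. Genes called at day 1 numbered 2 with 1 probe or without R arrays, 3 with the image folder as a block or within the larger folder, 0 with each day fitted by itself, and 3 to 5 with replicates left out. At day 2 they numbered 5 with array weights and 1 to 5 with replicates left out, and obstructed kidneys differed between days for 2 to 5 genes.

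Signs turned for Hnf4a at day 1 (0.00049 with quantile normalization, 0.079 with 1 probe, 0.12 without R arrays) and at day 5 (0.021 with 1 probe), and for Lhx1 at day 5 (0.25 with 1 probe). Pax8 turned at day 2 (-0.0297 without median subtraction and with zeros kept, -0.14 with values on all 22 arrays and with 1 probe) and at day 9 (-0.10 with zeros kept). Day 9 minus day 1 turned for Lhx1 (0.024 with array weights, 0.015 with the folder as a block), Pax2 (-0.11 without R arrays), Sox4 (-0.010 without R arrays) and Sox9 (-0.043 with 1 probe). With quantile normalization the LIM homeodomain median was -0.14 and that of the loop of Henle, distal and collecting duct factors 0.039. With replicates left out, ranges crossing 0 were -0.33 to 0.092 for Hnf4a at day 5, -0.31 to 0.083 for Lhx1 from day 1 to 9, -0.32 to 0.37, -0.023 to 0.32 and -0.10 to 0.36 for Pax8 at days 2, 5 and 9, -0.80 to 0.43 for Six2 at day 1, -0.11 to 0.70 for Sox4 and -0.39 to 0.94 for Sox9 from day 1 to 9, and -0.014 to 0.15 for the LIM median. The causes were not tested. Without median subtraction the median of all genes at day 5 was -0.11. Counting near-identical spots once, the plain mean of probes and the steps between neighbouring days were added after seeing the data. No paired analysis was possible because the groups share no replicate numbers.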
